A study of Mus musculus with 8 samples.

Results

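Glutathione transferases join glutathione to electrophiles, and aldehyde dehydrogenases oxidise aldehydes to carboxylic acids. Members were taken from the deposited gene table by name. They were the genes named for the glutathione transferase classes (alpha, kappa, mu, omega, pi, theta and zeta), the microsomal Mgst genes and the aldehyde dehydrogenases. The retinaldehyde dehydrogenases Aldh1a1, Aldh1a2 and Aldh1a3 were left out, and relatives with other names, such as Gm3776, were not taken. The names matched 44 of 53465 genes, 26 glutathione transferases, the pseudogene Gstm2-ps1 among them, and 18 aldehyde dehydrogenases. Of these, 33 were detected, meaning 10 or more counts in at least 2 libraries, and they comprised 18 glutathione transferases and 15 aldehyde dehydrogenases.

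RNA-seq was performed on B73 and B87, cell lines from primary pancreatic tumors of KC-shSmad4 mice. These animals carry Ptf1a-Cre, the rtTA3 transactivator with an mKate2 reporter at Rosa26, and a doxycycline (Dox)-inducible hairpin against Smad4 at Col1a1, so all libraries share these alleles. Cells kept on Dox are called Smad4 off, and cells withdrawn from Dox for 5 days are called Smad4 on. Each state was then exposed for 24 h to 100 pM TGFβ1, a cytokine that signals through Smad4, or to 2.5 µM SB505124, which blocks the kinase of the type I TGFβ receptor. The 4 groups held 1 library of each line, 8 libraries in all. Each line is a single culture, no arm was left without both TGFβ1 and the inhibitor, and Dox exposure and Smad4 state cannot be told apart.

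In normal tissues the 2 enzyme families act in sequence with other detoxifying steps. Glutathione conjugates are exported by ABC transporters and trimmed to mercapturates, and many genes of this system carry antioxidant response elements bound by NRF2 or xenobiotic response elements bound by the aryl hydrocarbon receptor. Several aldehyde dehydrogenases serve other pathways, such as folate, proline, valine or lysine metabolism.

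The targeted gene was checked first. Smad4 stood at 33.7 to 35.5 CPM (TMM-normalised counts relative to library size) in the 4 Smad4-off libraries and at 97.4 to 117 CPM in the 4 Smad4-on libraries, without overlap. Libraries held 18389235 to 23440550 counts, so that a floor of 3 counts corresponded to 0.125 to 0.162 CPM. Of the epithelial markers, Krt18 ranged from 592 to 2430 CPM, while Epcam did not exceed 2.11 CPM. Ptprc of leukocytes reached at most 0.153 CPM, and Adgre1, Cd3e, Lum, Cpa1, Ptf1a, Amy2b and Serpina1a had 0 counts in all libraries, 7 of the 24 non-epithelial markers examined. Others were present, such as Cd68 of macrophages at 1.17 to 6.29 CPM and Kdr of endothelium at 0.378 to 25.2 CPM. Summed fibroblast markers (6 genes) ranged over 14 to 51.4 CPM (Smad4 off) and 3.35 to 161 CPM (Smad4 on) with SB505124, and over 38.4 to 226 CPM and 7.55 to 668 CPM with TGFβ1, and Col1a1 alone over 0.349 to 627 CPM. Their part in the results was not tested.

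Many of the detected enzymes were lower with TGFβ1 than with SB505124 in both Smad4 states, led by the alpha-class Gsta4 and Gsta1 and by Aldh3a1. A gene is called here when edgeR's quasi-likelihood test, with the line in the model and Benjamini-Hochberg adjustment over 14301 tested genes, gave an adjusted p under 0.05 and the change exceeded 2-fold. In Smad4-on cells 16 members fell and 2 rose, which is 54.5% of the 33, where 13.9% of all tested genes were called. In Smad4-off cells 11 fell and 3 rose, which is 42.4%, where 5.93% of all tested genes were called. These counts include Gsta2 and Aldh1a7 in both states and Gsta3 and Gstm7 in Smad4-on cells, which were detected through SB505124 libraries only. Members were also chosen with earlier results of these data known, so the shares are descriptive. The median log2 change of the 33 members was -1.23 with Smad4 on and -0.68 with Smad4 off, and that of all tested genes was -0.02 in both. Setting Gsta2 and Gstm7, which had a whole group at 0, to their bounds leaves both medians as they are, since the bounds also lie below them. All 11 members that fell in Smad4-off cells also fell in Smad4-on cells, and Gsto2 and Aldh1l1 rose in both. Without the line in the model, edgeR called 11 members with Smad4 on and 5 with Smad4 off, and without the Smad4-off TGFβ1 library of B73 or of B87 it called 9 or 7 in Smad4-off cells. With the adjusted p alone, 3 members were higher and 20 lower in Smad4-on cells (33.2% of all genes passed), and 3 were higher and 15 lower in Smad4-off cells (13.2% of all genes passed). In the bulk samples a lower share of expressing cells and less RNA per cell cannot be told apart.

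The alpha class, whose enzymes handle lipid peroxidation products and xenobiotics, fell the most. Gsta4, the 4-hydroxynonenal-conjugating member (chr9:78182774-78209349, plus strand, GRCm38), had 235 (Smad4 off) and 594 (Smad4 on) CPM in B73 and 102 and 229 CPM in B87 with SB505124. With TGFβ1 it had 15.3 and 4.75 CPM in B73 and 6.63 and 2.6 CPM in B87. In both lines the highest library was Smad4 on with SB505124 and the lowest was Smad4 on with TGFβ1. The TGFβ1 difference was -6.75 ± 0.14 (log2, SE) in Smad4-on cells, a 108-fold decrease (edgeR adjusted p = 3.85e-06), and -3.95 ± 0.12, or 15.4-fold, in Smad4-off cells (edgeR adjusted p = 3.15e-05). The latter had an adjusted p of 0.0693 by edgeR in the model without the line, in which B87 had lower Gsta4 than B73 throughout.

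Gsta1 (chr9:78230656-78242684) showed the same order of conditions in both lines, although its 2 TGFβ1 libraries of B73 were close. It had 33.2 and 133 CPM in B73 and 19.6 and 46.3 CPM in B87 with SB505124, and 1.11 and 1.07 CPM in B73 and 2.19 and 0.867 CPM in B87 with TGFβ1. The decrease was -6.42 ± 0.52 (log2) in Smad4-on cells (edgeR adjusted p = 0.000285) and -3.96 ± 0.48 in Smad4-off cells (edgeR adjusted p = 0.00377). Gsta2 (chr9:78331018-78355788) was much scarcer, with 1.1 and 3.3 CPM in B73 and 1.1 and 4.33 CPM in B87 under SB505124. With TGFβ1 it had 0 counts in 3 libraries and 1 count in the Smad4-on library of B87. Over both lines, 47 counts against 0 made Gsta2 at least 7.9-fold lower with TGFβ1 in Smad4-off cells, by a floor of 3 counts in each library. In Smad4-on cells 165 counts against 1 gave a ratio of 152, with an exact 95% interval of 26.9 to 6040 that covers counting error only. The Gsta1 and Gsta2 values are not independent, since 84.7% of the 75-base stretches of Gsta1 transcripts occurred in another gene, chiefly Gsta2, and 36.6% of those of Gsta2 occurred elsewhere, chiefly in Gm10639. The related Gm3776 had 262 to 1178 counts with SB505124 and 10 to 30 counts with TGFβ1.

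Gsta3 (chr1:21240589-21265661), which shared no such stretch, had 2.4 and 1.46 CPM in B73 and 1.05 and 3.99 CPM in B87 with SB505124, and 0.051 to 0.357 CPM with TGFβ1. It was called lower in Smad4-on cells (-3.69 ± 0.83, edgeR adjusted p = 0.0151), and its edgeR adjusted p was 0.0503 without the line, 0.073 without the Smad4-on TGFβ1 library of B73 and 0.113 without the Smad4-on SB505124 library of B87. Summed over the alpha class, 272 and 731 CPM in B73 and 124 and 283 CPM in B87 with SB505124 compared with 16.6 and 5.87 CPM and 9.17 and 3.87 CPM with TGFβ1. All 4 alpha-class members had their 4 TGFβ1 libraries below their 4 SB505124 libraries, as had 13.5% of all tested genes. Gsta2 and Gsta3 were detected through SB505124 libraries only, so this pattern was favoured for them by the detection rule.

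**Figure D1:**
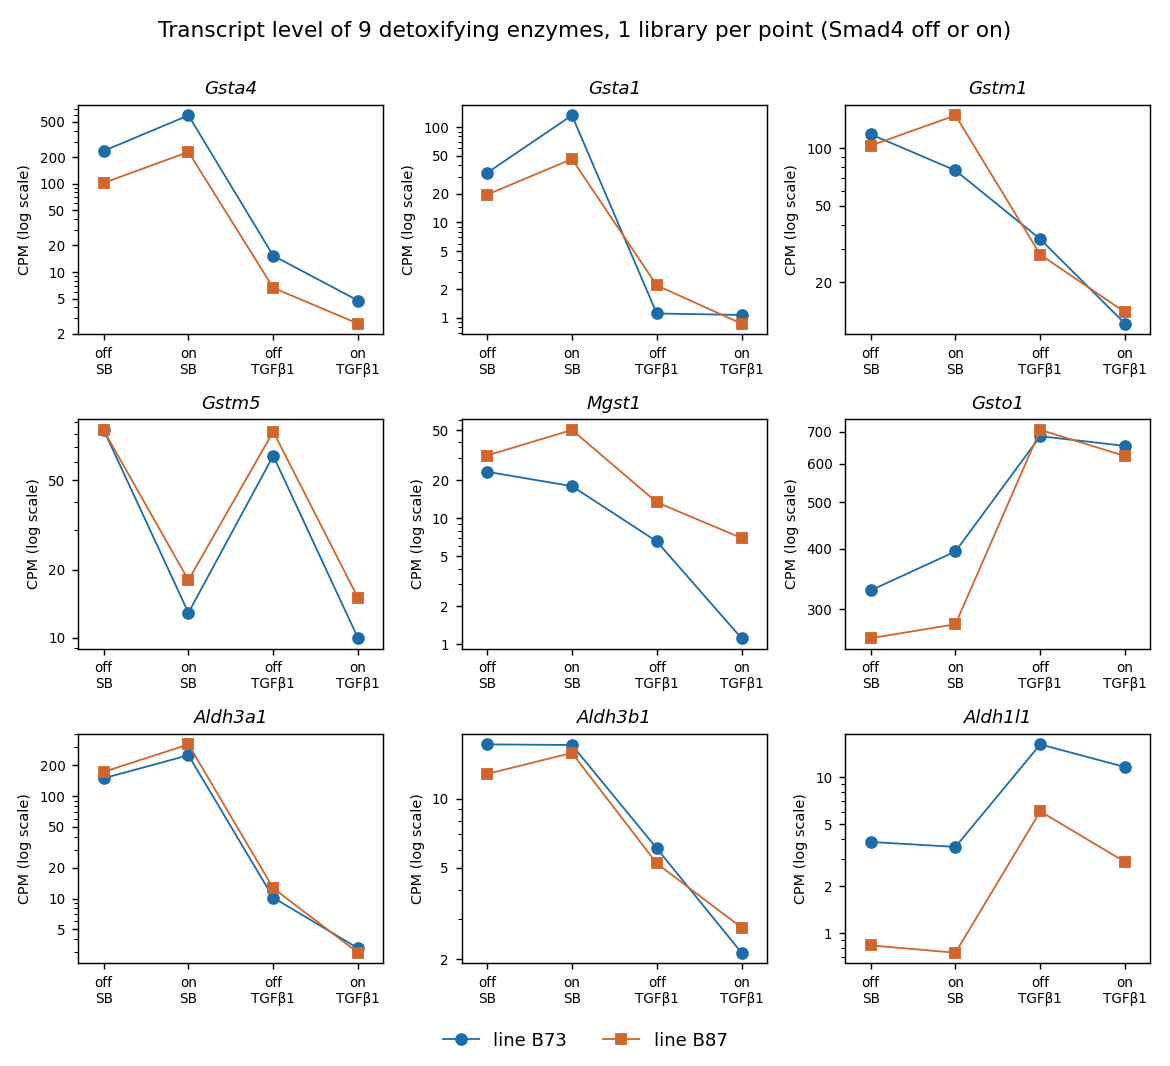
CPM on a log axis of 9 enzymes in each library, with circles for line B73 and squares for B87 and the 4 conditions along the x axis (Smad4 off or on, SB505124 or TGFβ1). Gsta4 spans 2.6 to 594 CPM and falls with TGFβ1, Gstm5 is low in the Smad4-on libraries under either agent, and Gsto1 is higher in all 4 TGFβ1 libraries.

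The promoter windows of Gsta1 and Gsta2 are shown because these neighbouring alpha-class genes moved together, and that of Gstm5, chosen after its values were seen, because it moved with the Smad4 state instead. The windows are from RefSeq (GRCm38.p6) and run from 250 bases before to 50 after the RefSeq start on the gene's own strand. They lie at chr9:78230419-78230718 (plus), chr9:78347096-78347395 (minus) and chr3:107895604-107895903 (plus). The Gsta2 window lies inside the span of the counted gene, which begins at 78355788 on its minus strand. Capitals mark matches, on either strand, to the antioxidant response element core TGACNNNGC, the xenobiotic response element core GCGTG, the AP-1 site TGANTCA or the palindromic SMAD element GTCTAGAC.
Gsta1: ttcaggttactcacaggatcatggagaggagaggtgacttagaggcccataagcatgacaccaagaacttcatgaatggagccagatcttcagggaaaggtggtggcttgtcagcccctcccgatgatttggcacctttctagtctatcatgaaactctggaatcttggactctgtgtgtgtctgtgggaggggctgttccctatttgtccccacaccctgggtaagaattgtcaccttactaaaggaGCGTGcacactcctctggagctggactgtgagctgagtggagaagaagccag
Gsta2: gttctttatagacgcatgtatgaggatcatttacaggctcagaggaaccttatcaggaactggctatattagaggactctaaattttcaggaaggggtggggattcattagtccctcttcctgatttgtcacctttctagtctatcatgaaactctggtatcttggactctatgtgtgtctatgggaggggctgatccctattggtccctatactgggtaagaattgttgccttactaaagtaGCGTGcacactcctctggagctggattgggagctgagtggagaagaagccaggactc
Gstm5: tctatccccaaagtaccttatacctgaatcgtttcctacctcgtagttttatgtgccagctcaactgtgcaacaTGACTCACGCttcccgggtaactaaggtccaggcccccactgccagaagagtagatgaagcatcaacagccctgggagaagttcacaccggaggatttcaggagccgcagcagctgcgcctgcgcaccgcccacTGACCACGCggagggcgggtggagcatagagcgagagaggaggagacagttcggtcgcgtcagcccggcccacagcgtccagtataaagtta
The Gsta1 and Gsta2 windows were 80.3% identical over aligned bases (232 identical, 57 mismatched). Each held GCGTG, beginning 2 bases before the RefSeq start in Gsta1 and 7 bases in Gsta2. Gstm5 held an AP-1 match 176 bases before its start that overlaps a reverse-strand GCGTG, and an antioxidant core 42 bases before its start that overlaps another. Ranked by size of fitted change, Gstm7, Aldh1a7, Gsta3, Mgst1, Gstm1 and Aldh3b1 came before Gstm5, but their windows are not printed. The first Gstm7 window and that of Aldh1a7 held no match to these motifs, and a second Gstm7 window held an antioxidant core.

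Of the 20 members called in any Smad4 or TGFβ1 comparison, Gsta4 and Aldh3a1, with the most calls, had no RefSeq window. Windows were found for the other 18. An antioxidant core was present in 4 of these 18 (Gsta3, Gstm5, Gstm7 and Mgst1), against 12.4% of all 32851 windows. The xenobiotic core was present in 8 of 18, against 32.4% of all windows. AP-1 matches occurred in 3 (Gstm5, Gstp1 and Mgst2), against 7.81% of all windows, and the SMAD palindrome in 0, against 0.213%. Among the 10 other detected members with a window, the counts were 1, 3, 0 and 0 in the same order of motifs. A member was counted when any of its windows held the motif, whereas the shares of all windows are per window. Some members had a second window, and Gstm7 held the antioxidant core in that window only, so the counts and shares are not measured alike. These are descriptions of letters in short windows, and binding was not measured.

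In the mu class, members differed in which condition they followed. Gstm1 (chr3:108012255-108017973), a major hepatic mu enzyme, had 118 and 76.5 CPM in B73 and 103 and 148 CPM in B87 with SB505124. With TGFβ1 it had 33.6 and 12.2 CPM in B73 and 27.9 and 14 CPM in B87, all below the SB505124 libraries. It fell by 3.08 ± 0.30 on the log2 scale in Smad4-on cells (edgeR adjusted p = 0.000579) and by 1.84 ± 0.28 in Smad4-off cells (edgeR adjusted p = 0.00809), and 11.7% of its 75-base stretches occurred elsewhere, chiefly in the pseudogene Gstm2-ps1, which had at most 2 counts. In Smad4-off cells it was not called without the line or without the TGFβ1 library of B87 (edgeR adjusted p = 0.0516 and 0.0699). Gstm7 was scarce, at 1.65 and 0.162 CPM in B73 and 1.41 and 1.83 CPM in B87 with SB505124 and 0.171 and 0 CPM and 0.548 and 0 CPM with TGFβ1. In Smad4-on cells its 47 counts against 0 made it at least 6.51-fold lower with TGFβ1 by the same floor, with 3 of the 47 counts from B73, and leaving out any of 5 libraries (the 4 TGFβ1 libraries and the Smad4-on SB505124 library of B87) ended the call, at edgeR adjusted p of 0.0503 to 0.187.

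Gstm5 (chr3:107895821-107898686), another mu-class transferase, changed with the Smad4 state and not detectably with TGFβ1. With SB505124 it had 83.4 CPM (Smad4 off) and 12.9 CPM (Smad4 on) in B73 and 83 and 18 CPM in B87. With TGFβ1 it had 64 and 9.95 CPM in B73 and 81.9 and 15 CPM in B87, so that every Smad4-off library lay above every Smad4-on library. The Smad4-on cells were lower by -2.45 ± 0.15 (log2) under SB505124 (edgeR adjusted p = 0.00287; 0.0871 without the line) and by -2.55 ± 0.16 under TGFβ1 (edgeR adjusted p = 0.00093; 0.0355 without the line). Its TGFβ1 differences were -0.31 ± 0.16 and -0.21 ± 0.14 in Smad4-on and Smad4-off cells (edgeR adjusted p = 0.176 and 0.386), and the interaction of Smad4 and TGFβ1 was -0.10 ± 0.21 (edgeR adjusted p = 0.912). Gstm5 shares 178 exon bases, 13.9% of its exons, with the opposite-strand 4933431E20Rik, which had 188 and 245 counts (Smad4 off) and 139 and 163 counts (Smad4 on) with SB505124, and 114 and 146 counts and 30 and 52 counts with TGFβ1. Gstm5 itself had 1494 to 1889 counts in the Smad4-off and 195 to 432 counts in the Smad4-on libraries.

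Gstm2 (chr3:107981702-107986453), also among the abundant members, had 9.58 and 3.84 CPM in B73 and 8.87 and 12.6 CPM in B87 with SB505124, and 5.18 and 0.919 CPM and 6.77 and 4.59 CPM with TGFβ1. It passed in no comparison by edgeR, while DESeq2 gave an adjusted p of 0.0198 for TGFβ1 in Smad4-on cells, where edgeR fitted -1.60 ± 0.55 with 0.0618. Gstm4 had 0.814 to 3.74 CPM and was called only between the lines. It was 2.74-fold higher in B87 (edgeR adjusted p = 0.0103).

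The pi-class Gstp1 (chr19:4035407-4037921), a broadly expressed transferase that also modifies protein thiols, fell moderately. It had 111 and 128 CPM in B73 and 74.3 and 77.9 CPM in B87 with SB505124, and 55.4 and 39.1 CPM and 36 and 29.9 CPM with TGFβ1. The log2 difference was -1.55 ± 0.10 in Smad4-on cells (edgeR adjusted p = 0.000147) and -1.02 ± 0.099 in Smad4-off cells (edgeR adjusted p = 0.0018; 0.215 without the line), or -0.98 without the TGFβ1 library of B87. Some of its sequence (29.2% of 75-base stretches) recurs chiefly in Gstp2, which had at most 3 counts. Gstz1, the maleylacetoacetate isomerase of tyrosine breakdown, had 25.7 to 35.1 CPM with SB505124 and 18.8 to 30.4 CPM with TGFβ1. It passed the adjusted p in Smad4-on cells at less than 2-fold (-0.42 ± 0.12, edgeR adjusted p = 0.0347). Gstk1, the kappa-class enzyme of mitochondria and peroxisomes, had at most 15 counts and was called in no comparison by edgeR. The theta-class Gstt3 had 2.05 and 2.92 CPM in B73 and 0.835 and 0.333 CPM in B87 with SB505124, and 0.9 and 0.561 CPM and 0.249 and 0.153 CPM with TGFβ1. It was called lower in Smad4-on cells (-1.99 ± 0.53, edgeR adjusted p = 0.0279), and DESeq2 gave 0.0824. The call ended without the Smad4-on SB505124 library of B73 or either Smad4-on TGFβ1 library (edgeR adjusted p of 0.0765 to 0.405). Gstt3 was also 4.04-fold lower in B87 than in B73 (edgeR adjusted p = 0.0103).

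The omega class moved the other way. Gsto1 (chr19:47854970-47864790), a dehydroascorbate reductase and protein deglutathionylase, was the most abundant member per transcript length. It had 328 and 395 CPM in B73 and 261 and 279 CPM in B87 with SB505124, and 685 and 654 CPM and 706 and 623 CPM with TGFβ1. The 4 TGFβ1 libraries lay above the 4 SB505124 libraries, and the difference was 1.25 ± 0.14 (log2) in Smad4-off cells (edgeR adjusted p = 0.00279) and 0.94 ± 0.14 in Smad4-on cells (edgeR adjusted p = 0.00284), the latter short of 2-fold. Its neighbour Gsto2 (chr19:47865545-47886324) had 2.6 and 2.11 CPM in B73 and 1.32 and 0.832 CPM in B87 with SB505124, and 5.87 and 6.02 CPM and 2.64 and 3.31 CPM with TGFβ1. It rose by 1.72 ± 0.24 in Smad4-on cells (edgeR adjusted p = 0.00242; 0.148 without the line) and by 1.10 ± 0.24 in Smad4-off cells (edgeR adjusted p = 0.0269; 0.45 without the line). The Smad4-off call of Gsto2 ended without any 1 of its 4 libraries (edgeR adjusted p of 0.105 to 0.194). Both genes lie within the span of the opposite-strand Cfap43, with 0 shared exon bases, and Cfap43 had 1048 to 1424 counts with SB505124 and 3106 to 3650 counts with TGFβ1. Whether unspliced Cfap43 reads entered these counts was not tested. Among the 33 members, Gsto1 and Gsto2 were the 2 with all TGFβ1 libraries above all SB505124 libraries (12.7% of tested genes), and 16 had them all below (13.5% of tested genes).

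The membrane-bound Mgst enzymes, which conjugate lipophilic substrates and reduce lipid hydroperoxides, all fell. Mgst1 (chr6:138140316-138156755) had 23.4 and 18 CPM in B73 and 31.5 and 50.3 CPM in B87 with SB505124, and 6.56 and 1.12 CPM and 13.4 and 6.98 CPM with TGFβ1. It was lower by -3.15 ± 0.42 in Smad4-on cells (edgeR adjusted p = 0.002; 0.0789 without the line) and by -1.58 ± 0.38 in Smad4-off cells (edgeR adjusted p = 0.0401; 0.46 without the line). The Smad4-off call of Mgst1 ended when any of 5 libraries was left out, and that of Mgst2 below when any of 6 was, the Smad4-off TGFβ1 libraries of both lines among them (edgeR adjusted p of 0.058 to 0.25 and of 0.0701 to 0.287). Mgst2, which can also make leukotriene C4, had 59.6 and 47 CPM in B73 and 29.2 and 30.4 CPM in B87 with SB505124, and 28.6 and 8.01 CPM and 13.6 and 9.18 CPM with TGFβ1. Its 4 TGFβ1 libraries were below its 4 SB505124 libraries, with differences of -2.10 ± 0.29 in Smad4-on cells (edgeR adjusted p = 0.00221) and -1.07 ± 0.27 in Smad4-off cells (edgeR adjusted p = 0.0447; 0.319 without the line). Mgst3 had 75.4 and 158 CPM in B73 and 69.7 and 112 CPM in B87 with SB505124, and 50.4 and 47.3 CPM and 40.5 and 36.5 CPM with TGFβ1. Its decrease reached -1.68 ± 0.11 in Smad4-on cells (edgeR adjusted p = 0.000139) and -0.68 ± 0.11 in Smad4-off cells (edgeR adjusted p = 0.00895), the latter under 2-fold.

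Aldehyde dehydrogenases of the 3 family, which clear lipid-derived aldehydes, fell with TGFβ1. Aldh3a1 (chr11:61207537-61218421), which oxidises aromatic and medium-chain aldehydes and is abundant in cornea, had 149 and 250 CPM in B73 and 172 and 319 CPM in B87 with SB505124. With TGFβ1 it had 10.2 and 3.27 CPM in B73 and 12.6 and 2.96 CPM in B87. The order of its 4 conditions was that of Gsta4 in both lines, on another chromosome. The decrease was -6.50 ± 0.14, or 90.7-fold, in Smad4-on cells (edgeR adjusted p = 3.85e-06) and -3.82 ± 0.12, or 14.1-fold, in Smad4-off cells (edgeR adjusted p = 3.15e-05).

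Its neighbour Aldh3a2 (chr11:61223417-61267464), the fatty aldehyde dehydrogenase, moved far less. It had 126 and 160 CPM in B73 and 100 and 112 CPM in B87 with SB505124, and 82.1 and 59.7 CPM and 68.7 and 54.7 CPM with TGFβ1. It fell by 1.23 ± 0.11 on the log2 scale in Smad4-on cells (edgeR adjusted p = 0.000345) and by 0.58 ± 0.10 in Smad4-off cells (edgeR adjusted p = 0.0151), the latter under 2-fold. Aldh3b1 (chr19:3913493-3929761), a membrane-anchored enzyme for long-chain aldehydes, had 17.2 and 17.1 CPM in B73 and 12.8 and 15.8 CPM in B87 with SB505124, and 6.08 and 2.14 CPM and 5.23 and 2.75 CPM with TGFβ1. Its TGFβ1 libraries all lay below its SB505124 libraries, by -2.74 ± 0.22 in Smad4-on cells (edgeR adjusted p = 0.000269) and -1.40 ± 0.20 in Smad4-off cells (edgeR adjusted p = 0.00634). The latter was 0.0528 without the TGFβ1 library of B73 and 0.0713 without that of B87, by edgeR. Its close relatives Aldh3b2 and Aldh3b3 had at most 1 and 0 counts.

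Aldh1a7 (chr19:20692953-20727562), a rodent relative of Aldh1a1, had 5.74 and 8.32 CPM in B73 but 1.14 and 1.21 CPM in B87 with SB505124, and 0.514 and 0.357 CPM and 0.0498 and 0.102 CPM with TGFβ1. The last 2 of these rest on 1 and 2 counts. It fell in both states, by 4.24 ± 0.39 in Smad4-on cells (edgeR adjusted p = 0.000419; 0.108 without the line) and by 3.65 ± 0.37 in Smad4-off cells (edgeR adjusted p = 0.00209; 0.281 without the line), and was 5.82-fold lower in B87 (edgeR adjusted p = 0.000863). Aldh6a1, the methylmalonate semialdehyde dehydrogenase of valine breakdown, had 16.6 and 12.5 CPM in B73 and 13.9 and 12.7 CPM in B87 with SB505124, and 6.73 and 4.95 CPM and 8.02 and 7.14 CPM with TGFβ1. It was about 2-fold lower with TGFβ1 in Smad4-on (-1.07 ± 0.21, edgeR adjusted p = 0.00911) and Smad4-off cells (-1.05 ± 0.21, edgeR adjusted p = 0.02; 0.0937 without the line). Leaving out the Smad4-on library of B73 under either agent, or for the Smad4-off cells the SB505124 library of B73 or either TGFβ1 library, ended these calls (edgeR adjusted p of 0.0533 to 0.149).

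Aldh1l1 (chr6:90486427-90600203), the cytosolic 10-formyltetrahydrofolate dehydrogenase of folate metabolism, was the aldehyde dehydrogenase called higher with TGFβ1. It had 3.84 and 3.57 CPM in B73 and 0.835 and 0.749 CPM in B87 with SB505124, and 16.2 and 11.6 CPM and 6.03 and 2.86 CPM with TGFβ1. Within each line both TGFβ1 libraries were above both SB505124 libraries, although the ranges of the lines overlapped. It rose by 2.41 ± 0.26 in Smad4-off cells (edgeR adjusted p = 0.00252; 0.388 without the line) and by 1.77 ± 0.27 in Smad4-on cells (edgeR adjusted p = 0.00304; 0.348 without the line), and was 3.74-fold lower in B87 (edgeR adjusted p = 0.000841). Its mitochondrial counterpart Aldh1l2 had 10.7 to 46.7 CPM and passed in no comparison by edgeR. By DESeq2 it passed for TGFβ1 in Smad4-off cells (adjusted p = 0.0223), between the lines (0.00777) and for the line difference in the TGFβ1 response (0.00305).

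The most abundant aldehyde dehydrogenases outside the 3 family were not called in a Smad4 or TGFβ1 comparison. Aldh2, the mitochondrial enzyme of acetaldehyde oxidation, had 293 and 311 CPM in B73 and 319 and 375 CPM in B87 with SB505124, and 287 and 262 CPM and 327 and 343 CPM with TGFβ1. Aldh18a1, which makes the proline precursor pyrroline carboxylate, had 123 and 90.7 CPM in B73 and 146 and 117 CPM in B87 with SB505124, and 131 and 125 CPM and 98.3 and 101 CPM with TGFβ1. In neither did the TGFβ1 libraries stand apart from the SB505124 libraries. Aldh9a1, an enzyme of carnitine synthesis, had 77.6 and 74.1 CPM in B73 and 59.8 and 62.6 CPM in B87 with SB505124, and 56.6 and 38.7 CPM and 44.2 and 38 CPM with TGFβ1. It passed the adjusted p under 2-fold in Smad4-on cells (-0.82 ± 0.11, edgeR adjusted p = 0.00188) and in Smad4-off cells (-0.44 ± 0.11, edgeR adjusted p = 0.0395). Aldh16a1 also passed in both states under 2-fold, and Aldh5a1, of GABA breakdown, in Smad4-on cells. Aldh4a1, of proline breakdown, and Aldh1b1 passed in no comparison by edgeR, and Aldh7a1, of lysine breakdown, passed between the lines.

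**Figure D2:**
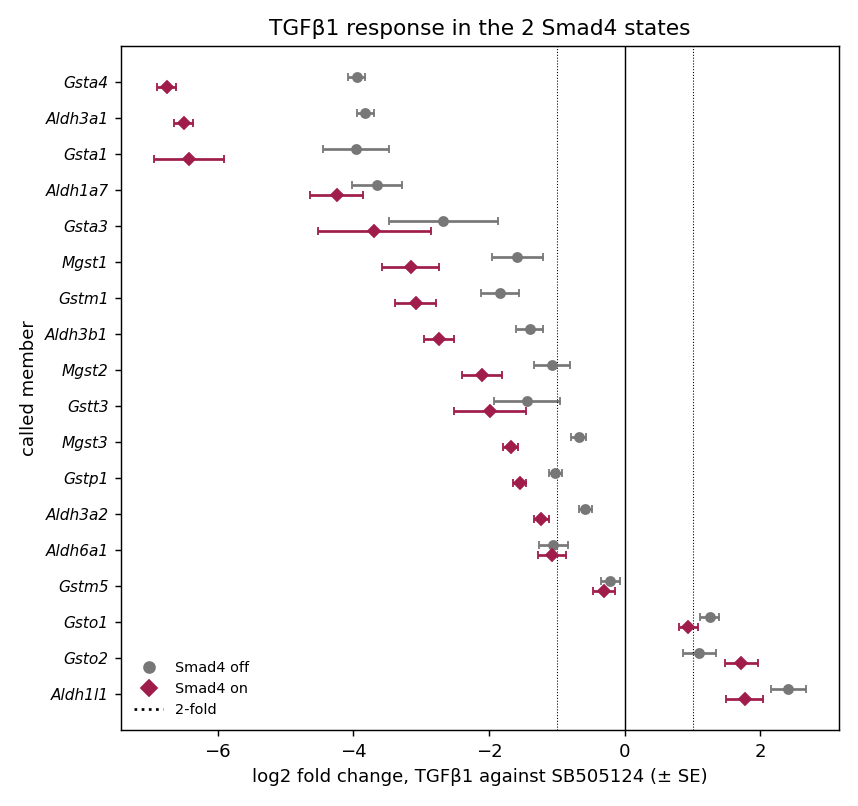
Log2 fold change of TGFβ1 against SB505124 (x axis, point and SE) for 18 members called in a Smad4 or TGFβ1 comparison, with grey circles for Smad4 off and red diamonds for Smad4 on, and dotted lines at 2-fold. Gsta4 lies at -6.75 with Smad4 on and -3.95 with Smad4 off, Gstm5 lies near 0 in both, and Gsto1, Gsto2 and Aldh1l1 lie above 0. Gsta2 and Gstm7, with a whole group at 0, are left out.

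The difference between the Smad4 states in the TGFβ1 response was tested as an interaction. It was called for 2 of 33 members, both lower, against 0.189% of all tested genes (0.196% with the adjusted p alone). Gsta4 had an interaction of -2.80 ± 0.17 (log2, edgeR adjusted p = 0.00529) and Aldh3a1 one of -2.69 ± 0.17 (edgeR adjusted p = 0.00529). The lines did not differ in sign, with -3 in B73 and -2.48 in B87 for Gsta4 and -2.37 and -2.95 for Aldh3a1. Without the line in the model, edgeR gave an adjusted p of 1 for Gsta4 and 0.215 for Aldh3a1, and 0 members were called by edgeR (6 had an unadjusted p under 0.05). The 2 calls also rested on the Smad4-off TGFβ1 library of B73, without which the values were -2.81 and -2.73 and the edgeR adjusted p was 0.0749 and 0.0642. Gsta1 had an interaction of -2.45 ± 0.77, with an edgeR adjusted p of 0.316.

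The interaction arose with opposite Smad4 differences under the 2 agents. Under TGFβ1, 4 members were called lower when Smad4 was on and 0 higher, 12.1% of the 33, against 3.12% of all tested genes (6.8% with the adjusted p alone, which passed the same 4). Besides Gstm5 they were Gsta4 (-1.55 ± 0.14, edgeR adjusted p = 0.00266; 0.428 without the line), Aldh3a1 (-1.87 ± 0.14, edgeR adjusted p = 0.0014; 0.0325 without the line) and Aldh3b1 (-1.20 ± 0.22, edgeR adjusted p = 0.0265; 0.127 without the line). Aldh3b1 was no longer called when the Smad4-on TGFβ1 library of B73 or either Smad4-off TGFβ1 library was left out. Under SB505124, 1 member was called higher and 1 lower, against 1.09% of all tested genes. Gsta4 was higher in Smad4-on cells by 1.25 ± 0.10 (edgeR adjusted p = 0.00358; 0.969 without the line) and Gstm5 was lower. With the adjusted p alone (1.59% of all genes passed), Aldh3a1 (0.82 ± 0.099) and Mgst3 (0.87 ± 0.11) were also higher, each with an edgeR adjusted p of 0.0139. Gsta1, at 1.67 ± 0.37, had an edgeR adjusted p of 0.103. The median log2 Smad4 difference of the 33 members was -0.47 under TGFβ1 and -0.01 under SB505124, against -0.01 and 0.00 for all tested genes.

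**Figure D3:**
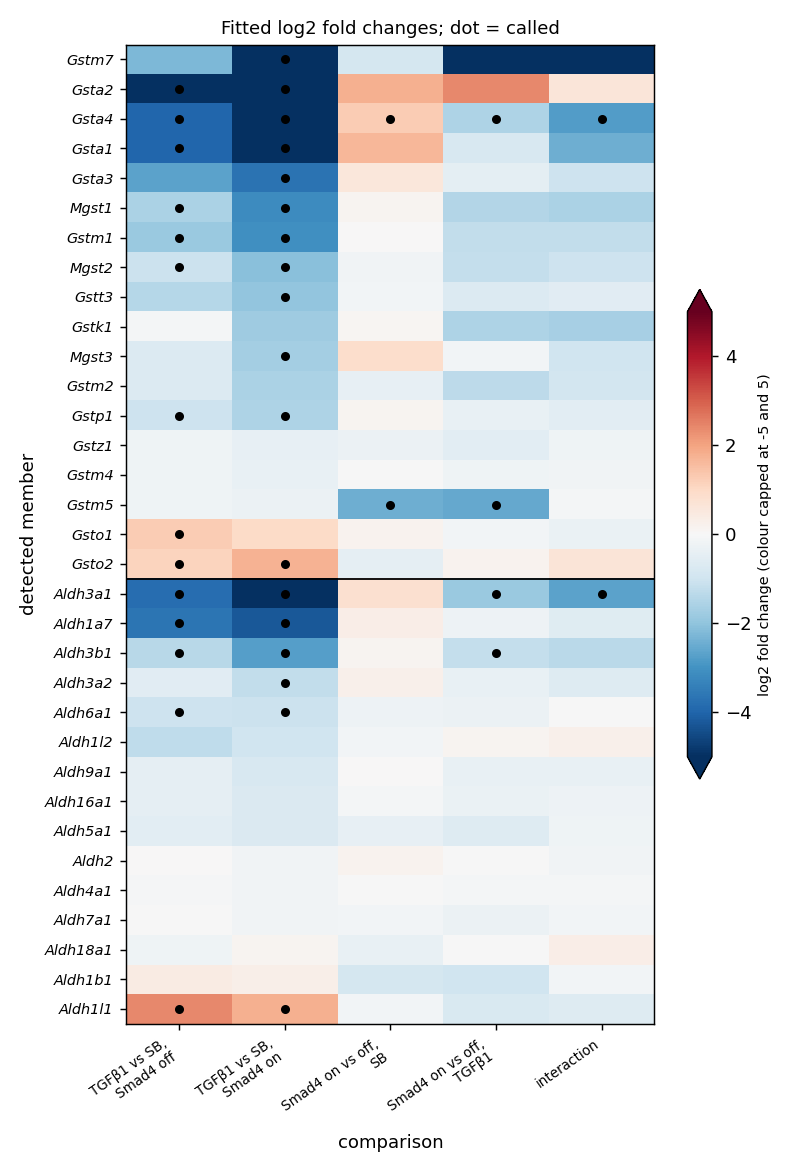
Fitted log2 fold changes of the 33 detected members (rows, glutathione transferases above the line) in 5 comparisons (columns), coloured from blue (lower) to red (higher), capped at -5 and 5, with a dot for each call. The TGFβ1 columns hold 14 dots (Smad4 off) and 18 dots (Smad4 on), and the Smad4 columns hold 2 under SB505124 and 4 under TGFβ1. Colours of Gsta2 and Gstm7, which had a whole group at 0, are not bounds.

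These comparisons share libraries, since the same TGFβ1 or SB505124 group enters both a Smad4 and a TGFβ1 comparison. Calls of members in the 5 comparisons numbered 40, and B73 and B87 moved in the same direction in 40 of 40. The lines are the only replicates of these fits, so a call itself favours agreement between them. The agreement is therefore no independent support. Of the detected members, 5 (Gstm7, Aldh1a7, Gsta3, Gstk1 and Gsta2) passed the detection rule through SB505124 libraries only and 0 through TGFβ1 libraries only, so the counts of lower calls include genes that could only be detected where they were high.

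Between the lines, averaged over conditions, 2 members were called higher and 5 lower in B87, 21.2% of 33, against 8.37% of all tested genes (18.6% with the adjusted p alone, by which 5 members were higher and 8 lower). Mgst1 (2.33-fold) and Gstm4 were higher in B87, and Gsta4 (2.33-fold), Gsto2 (2.09-fold), Gstt3, Aldh1a7 and Aldh1l1 were lower. Each line is 1 culture, so the test compares these cultures only. A difference between lines in the TGFβ1 response was called for 0 members and 0% of all tested genes by edgeR, with 4 members at an unadjusted p under 0.05 and 1 member, Aldh1l2, called by DESeq2.

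**Figure D4:**
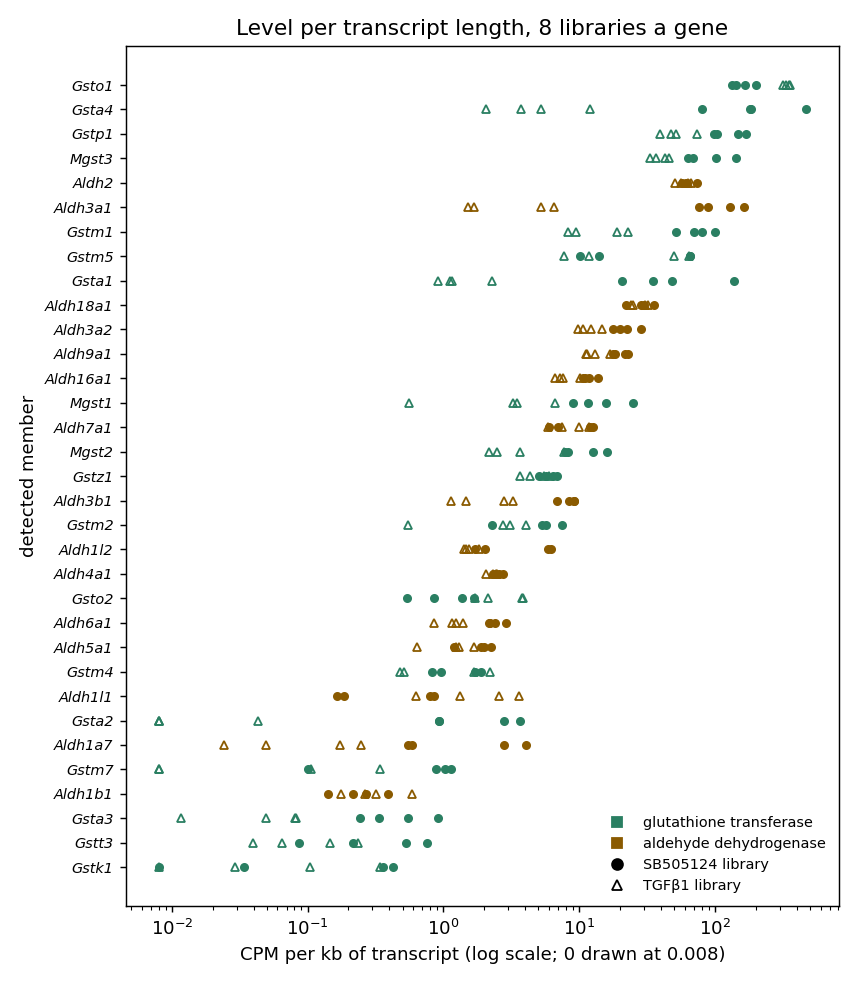
CPM per kb of transcript on a log axis for the 33 detected members (rows, by mean level), 1 point per library, with filled circles for SB505124 and open triangles for TGFβ1, green for glutathione transferases and brown for aldehyde dehydrogenases. Gsto1 has the highest mean at 250 CPM per kb, and Gsta4, Gsta1 and Aldh3a1 have wide gaps between agents.

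Per kb of transcript, mean levels over the 8 libraries were 250 CPM for Gsto1, 117 for Gsta4, 91.1 for Gstp1, 67.1 for Mgst3, 61.4 for Aldh2 and 59.2 for Aldh3a1. Lengths are those of the deposited table. Gstp1 has a shorter length there (757 bases) than in the GENCODE exons (1548 bases), by which its level was 44.5 CPM per kb, below Mgst3, Aldh2 and Aldh3a1, a length chosen after seeing the data. Together the 44 genes made up 1846 to 2663 CPM with SB505124 and 1409 to 1704 CPM with TGFβ1, without overlap. The glutathione transferases as a sum did overlap (823 to 1600 CPM against 771 to 981 CPM), with Gsto1 high where most others were low, and the aldehyde dehydrogenases did not (965 to 1210 CPM against 604 to 723 CPM). The 11 members under the detection rule were Gstp2, Gstp3, Gstm2-ps1, Gstm3, Gstm6, Gstt1, Gstt2, Gstt4, Aldh3b2, Aldh3b3 and Aldh8a1. Gstt1 reached 19 counts in 1 library and the others at most 4.

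Genes that act beside these enzymes were counted in lists. Of 12 tested genes of glutathione synthesis and recycling, 6 fell and 1 rose in Smad4-on cells (TGFβ1 against SB505124). In Smad4-off cells 3 fell and 1 rose. The shares of all tested genes called were 13.9% with Smad4 on and 5.93% with Smad4 off. Slc7a11, the cystine importer, fell by 3.14 ± 0.34 and 1.58 ± 0.32 (log2, edgeR adjusted p = 0.000821 and 0.0227). Gclc, the catalytic subunit of the rate-limiting enzyme of glutathione synthesis, fell by 2.82 ± 0.10 and 1.54 ± 0.099 (edgeR adjusted p = 3.26e-05 and 0.000597), and its interaction of -1.29 ± 0.14 was also called (edgeR adjusted p = 0.038). Ggct, the gamma-glutamylcyclotransferase, rose by 2.75 ± 0.27 and 3.07 ± 0.26 (edgeR adjusted p = 0.000579 and 0.00114). The list thus moved in both directions, and its median log2 difference in Smad4-on cells was -1.01. Without the line, edgeR adjusted p was 0.0887 and 0.447 for Slc7a11, 0.00757 and 0.0899 for Gclc, and 0.0707 and 0.12 for Ggct. The interaction of Gclc was not called by edgeR without the line.

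Of 10 tested genes of conjugate export and mercapturate formation, 3 fell with Smad4 on, 2 fell with Smad4 off, and 0 rose. For this and the next list, 13.9% of all tested genes were called with Smad4 on and 5.93% with Smad4 off. Abcc3, an exporter of conjugates, fell by 4.99 ± 0.41 and 2.31 ± 0.36 (edgeR adjusted p = 0.000282 and 0.00927). Of 16 NRF2 and aryl hydrocarbon receptor regulators and targets, 5 fell and 1 rose in Smad4-on cells and 2 fell in Smad4-off cells, with medians of -0.13 and -0.14. Cyp1a1, an aryl hydrocarbon receptor target, fell by 5.60 ± 0.34 and 3.49 ± 0.29 (edgeR adjusted p = 0.000114 and 0.00105), and Nqo1, an NRF2 target, by 2.52 ± 0.34 and 1.68 ± 0.34 (edgeR adjusted p = 0.00198 and 0.0222). Without the line, edgeR adjusted p was 0.00562 and 0.0813 for Abcc3, 0.0148 and 0.0965 for Cyp1a1, and 0.566 and 0.817 for Nqo1. Nqo1 was 25.9-fold higher in B87 than in B73. Of other NRF2 targets, Srxn1 was called lower in Smad4-on cells (-1.29 ± 0.14, edgeR adjusted p = 0.000946). Hmox1 (0.17 ± 0.14 and 0.29 ± 0.15) and Txnrd1 (-0.13 ± 0.09 and -0.11 ± 0.09) were not called. The gene of NRF2 itself, Nfe2l2, fell by 1.66 ± 0.091 in Smad4-on cells (edgeR adjusted p = 9.9e-05) and by 0.66 ± 0.089 in Smad4-off cells (edgeR adjusted p = 0.00533). Its interaction was -1 ± 0.13 (edgeR adjusted p = 0.0496). Without the line, edgeR gave Nfe2l2 adjusted p of 0.00133 and 0.0313, and 0.392 for the interaction. The gene of the receptor, Ahr, differed by -0.13 ± 0.16 and -0.16 ± 0.16 (edgeR adjusted p = 0.591 and 0.575).

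Of 13 tested alcohol and other aldehyde-metabolising enzymes, 5 fell with Smad4 on and 3 with Smad4 off. Of all tested genes, 13.9% and 5.93% were called. The carbonyl reductase Cbr3 fell by 3.87 ± 0.54 and 1.92 ± 0.47 (edgeR adjusted p = 0.0023 and 0.041). The alcohol dehydrogenase Adh7 was lower, at -3.12 ± 0.27 and -1.93 ± 0.25 (edgeR adjusted p = 0.000354 and 0.00485). Without the line, edgeR adjusted p was 0.0152 and 0.166 for Cbr3 and 0.00864 and 0.0725 for Adh7. For pathways of the other aldehyde dehydrogenases, edgeR called 0 of 11 folate genes in Smad4-on cells, where 13.9% of all genes were called. It called 1 of 7 proline and ornithine genes (P4ha1, higher) and 1 of 14 genes of branched-chain amino acid and propionate breakdown (Bcat2, lower). With the adjusted p alone, 5, 3 and 6 genes of the folate, proline and branched-chain lists passed, where 33.2% of all genes did. In Smad4-off cells edgeR called 0 of each list, where 5.93% of all genes were called. At an unadjusted p under 0.05 there were 4 of each list. Of all tested genes, the Smad4 comparisons called 3.12% under TGFβ1 and 1.09% under SB505124. Of the 83 tested genes of these 7 lists they called 0 by edgeR under either agent. With the edgeR adjusted p alone, 6.8% of all genes passed under TGFβ1. In the lists, 2 glutathione genes passed lower, and 1 export gene passed higher and 1 lower. Of the NRF2 and receptor list 2 passed higher and 1 lower, and 1 branched-chain gene passed lower. They included Gclc (-0.79 ± 0.099, edgeR adjusted p = 0.00738) and Nfe2l2 (-0.71 ± 0.089, edgeR adjusted p = 0.00741). Under SB505124 0 passed in each list. At an unadjusted p under 0.05 there were 27 under TGFβ1 and 13 under SB505124, and 16 and 5 passed the adjusted p of DESeq2.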

How the data were processed

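Polyadenylated RNA of 8 cultures (lines B73 and B87, 4 conditions) was sequenced as stranded libraries with 75-base single-end reads. Per the labels and the submitters' processing notes, the authors used FastQC (0.11.5), Trimmomatic (0.36), STAR (2.5.3a) and featureCounts (1.6.3) on GRCm38. The settings for strand and multi-mapping reads are not given in the sources used here. The deposited values are raw counts per Ensembl gene (53465 genes), with replicates not pooled. A further allele that all libraries share is not reported here.

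Counts were analysed with edgeR (4.0.16, R 4.3.3): filterByExpr, TMM, and a quasi-likelihood model of 4 groups and line over all 8 libraries, with Benjamini-Hochberg adjustment over 14301 genes. A call required an adjusted p under 0.05 and over 2-fold, the thresholds of the study, which used DESeq2 and named no covariate. The line, given in the titles, entered because each line passed through every condition. Deviations of same-line libraries from their group means correlated at 0.642 to 0.774 over 6 group pairs, so the lines pair the libraries. The line-difference test added line by TGFβ1. SEs were derived from the F statistics. CPM carry no prior count. The fit was tested on simulated data.

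The members and gene lists were chosen with earlier results of these data known. Named with values are members called in any comparison and the 3 most abundant others of each family. All 33 detected members passed the count filter. Positions were checked against GENCODE M21, shared stretches were exact 75-base matches between transcripts, and promoter windows came from RefSeq (GRCm38.p6). With 1 library per line and group and the line in the model, p-values rest on the spread left after the constant difference between these cultures is removed. They thus measure how unevenly these cultures responded, not how far they stood apart. Totals of 18389235 to 23440550 counts set the precision, and floors and intervals cover counting error only. Alternatives were no line, DESeq2 (1.42.0) and its size factors, no count filter, no fold rule, and leaving out each library.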

Additional observations from a re-analysis of the deposited data

Results flagged for a closer look

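Gsta4 and Aldh3a1 were singled out because the Smad4 difference itself differed between the agents by the interaction test. Its value was -2.80 on the log2 scale for Gsta4 and -2.69 for Aldh3a1, each with an edgeR adjusted p of 0.00529 with the line in the model.

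For 7 further members the Smad4 difference had one sign under TGFβ1 in both lines and the other sign under SB505124 in both lines, while the interaction did not pass the adjusted p threshold of edgeR. The difference of the Smad4 effects, TGFβ1 minus SB505124, was -2.45 for Gsta1, -0.99 for Mgst3, -0.65 for Aldh3a2, -0.53 for Gstp1, -0.32 for Gsto1, 0.26 for Aldh1l2 and 0.63 for Gsto2. DESeq2 gave the interaction an adjusted p of 0.00015 for Mgst3 and 0.0379 for Aldh3a2.

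In 2 members an effect had one sign in both of its comparisons in B73 and the other sign in both in B87. The Smad4 effect on Gsta3 was greater in B87 than in B73 by 1.81 on the log2 scale, averaged over both agents, and this difference was not tested. The TGFβ1 effect on Aldh18a1 differed by -0.67, B87 minus B73, averaged over both Smad4 states, with an adjusted p of 0.353 by edgeR and 0.0227 by DESeq2. With 2 libraries a group, no search for a stray library within a group was possible.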

How the results depend on the processing

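Without the line in the model (no pairing of the libraries), member calls fell to 2 of 4 for Smad4 under TGFβ1, 0 of 2 under SB505124 (5 at an unadjusted p under 0.05), 11 of 18 for TGFβ1 in Smad4-on cells, 5 of 14 in Smad4-off cells and 0 of 2 for the interaction. Of the 40 calls, 18 were kept without the line and 22 were lost, 40 were kept with DESeq2 size factors and 39 with DESeq2, which lost Gstt3. DESeq2 called 7 for Smad4 under TGFβ1 and 1 for the line difference in the TGFβ1 response. With no count filter, edgeR called 9 and 4 members for Smad4 under TGFβ1 and SB505124, 8 for the interaction and 2 for the line difference in the TGFβ1 response. With no fold rule, 4 members passed for Smad4 under SB505124 and 13 between the lines. Leaving out each library in turn gave 3 to 6 calls for Smad4 under TGFβ1, 2 to 3 under SB505124, 16 to 19 for TGFβ1 in Smad4-on cells, 7 to 14 in Smad4-off cells, 0 to 2 for the interaction, 5 to 8 between the lines and 0 for the line difference; an arm left with 1 library was assumed to vary like the others. No call of these 40 changed sign without the line, with DESeq2 or its size factors, or without any 1 library. The cause of these shifts was not tested. The level of Gstp1 per kb was 91.1 CPM with the table's length and 44.5 CPM with the GENCODE length, a setting added after seeing the data. Depth limits Gsta2, Gsta3, Gstm7, Gstt3, Gstk1 and Aldh1a7, which had 0 to 3 counts in at least 1 library.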
